A study of Homo sapiens with 6 samples.

Results

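The JAK kinases and STAT factors were followed as mRNAs in K562, an established human erythroleukaemia line with the BCR-ABL1 fusion gene. The members were the genes JAK1, JAK2, JAK3, TYK2, STAT2, STAT3, STAT5A, STAT5B and STAT6, looked up by symbol in the platform annotation. A probe set, the group of array probes that reads 1 transcript cluster, was found for 8 of these 9 genes, out of 17687 distinct genes named on the array. Each of the 8 had 1 probe set. STAT2 was not analysed here. K562 cells with a miR-543 vector, labelled as overexpressing that microRNA, were compared with K562 cells with a control vector, on 3 arrays each. All 6 arrays carry the same tissue label, bone marrow, and come from the 1 cell line. The labels do not name the vector backbone, its promoter, the time after transfer, or whether the 3 replicates of a group were separate cultures. The p-values therefore rest on the scatter of these arrays alone, which may be technical.

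Cytokine receptors of the class considered here have no kinase of their own. A JAK kinase bound to the receptor's inner tail is activated when ligand joins the receptor chains, and it phosphorylates the tail and the STAT proteins that dock there. The STATs then pair, enter the nucleus and bind short DNA elements. In red cell precursors JAK2 and STAT5 carry the erythropoietin signal, and activating mutations of JAK2 are the most common driver of myelofibrosis, the disease named in the title of the series. In K562 the BCR-ABL1 kinase phosphorylates STAT5 without need of a cytokine. The arrays measure mRNA and say nothing of phosphorylation.

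The mature microRNA that defines the vector is encoded in the DLK1 to DIO3 imprinted region and is given here as RefSeq lists it (GRCh38.p14, chr14:101032033-101032054, plus strand). Its 22 bases are printed 5′ to 3′ because the seed, bases 2 to 8 in capitals, is the part that pairs with target mRNAs.
miR-543: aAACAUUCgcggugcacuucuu

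Signals are log2 values, so a difference of 1 is a doubling of signal. Array medians lay between 5.995 and 6.01 with the miR-543 vector and no lower than 5.99 with the control vector. Of the markers named for K562, HBE1, HBZ, TFRC, GATA1 and KLF1 were measured, and their means ran from 7.47 to 15.8 with the miR-543 vector and from 6.81 to 15.7 with the control vector. Markers of other lineages were not all dim. In both groups a mean above 6 was found for 2 of 5 lymphoid and 2 of 5 monocyte and granulocyte markers. The same held for 4 of 6 epithelial and fibroblast markers. None of these markers was called, against 0.569% of all probe sets. In the K562 and lymphoid lists, 1 gene each had groups that did not overlap, as had 15.4% of all probe sets. Their log2 changes were larger than those of any JAK or STAT gene, KLF1 at 0.66 (adjusted p = 0.106) and CD3D at 0.64 (adjusted p = 0.184). The summed linear signal of the 5 lymphoid markers was 2262 to 2925 on the miR-543 arrays and 1525 to 1926 on the control arrays, while CD3E, MS4A1, CD79A and CD2 had log2 changes of -0.08, -0.04, 0.26 and 0.00. That of the 5 K562 markers was 194040 to 201679 on the miR-543 arrays and 175246 to 196434 on the control arrays. The part of these markers in the JAK and STAT changes was not tested. No probe set was named for miR-543 (0 of 21448), so its own level could not be checked.

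None of the 8 members passed the test over all probe sets, limma with Benjamini-Hochberg adjustment at 0.05. The 3 members with the largest differences were STAT5A and STAT5B, both lower with the miR-543 vector, and JAK2, higher with it. These were also the 3 members with an unadjusted p under 0.05 (37.5% of the members, against 10.6% of all probe sets) and the 3 whose groups did not overlap (37.5%, against 15.4%). All 8 members had a mean signal above 6, about where the array medians lay, whereas the shares over all probe sets include the dim ones. The members were also chosen with earlier results of these data known, so these shares do not compare like with like. At the adjusted threshold the count of 0 stands against 0.569% of all probe sets. With a variance prior that follows signal level and resists outliers, 1 of the 8 members, STAT5A, passed (adjusted p = 0.0145). That prior also raised the calls over the whole table from 122 to 252 of 21448 probe sets. The members' median log2 change was -0.12, against 0.01 over all probe sets, and 6 of the 8 lay below 0, as did 47.7% of all probe sets, with JAK1 near 0 and of changing sign (0.0203 after a further quantile normalization). In bulk RNA, fewer cells with a transcript and less of it per cell cannot be told apart.

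**Figure D1:**
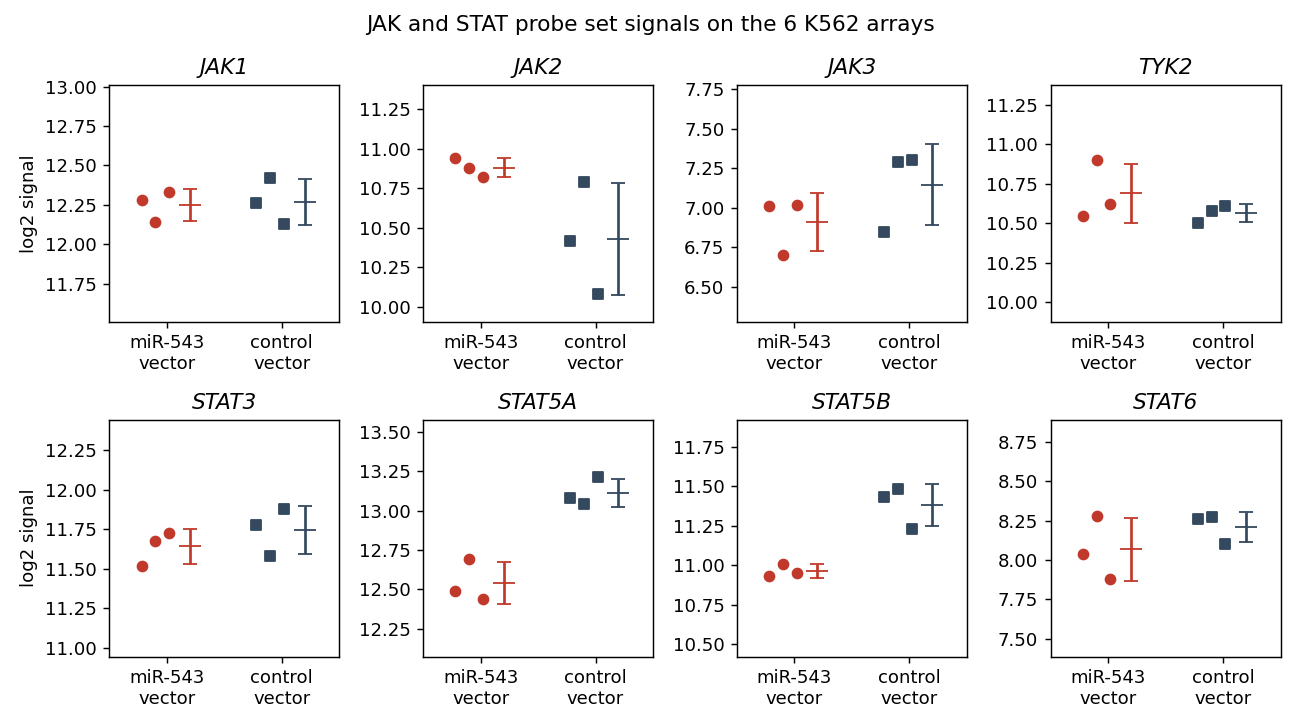
Log2 signal of the 8 measured JAK and STAT probe sets on the 3 miR-543 vector arrays (circles) and the 3 control vector arrays (squares), with the mean and SD beside each group; every panel spans the same range of log2 units around its own centre. The groups are apart for JAK2, STAT5A and STAT5B and overlap for the other 5 genes.

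Of the kinases, JAK2 serves the receptors for erythropoietin, thrombopoietin, growth hormone and interferon gamma (there with JAK1). Its probe set on chromosome 9 (TC0900006538.hg.1) read 10.94, 10.88 and 10.82 with the miR-543 vector, against 10.42, 10.79 and 10.08 with the control vector. All miR-543 arrays were above all control arrays, but the lowest miR-543 array and the highest control array lay close together, and the control arrays were widely spread. The means were 10.88 ± 0.060 with the miR-543 vector and 10.43 ± 0.36 with the control vector (SD, n = 3 each), a log2 change of 0.45 (SE 0.18, 95% interval 0.045 to 0.86), or 1.37-fold (interval 1.03-fold to 1.81-fold). The unadjusted limma p was 0.0327 and the adjusted p 0.422. Control replicate 3 held the lowest value, and without it the log2 change was 0.275, against 0.63 without control replicate 2.

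JAK1 is shared by the gp130, gamma-chain and interferon receptors and was read by TC0100014457.hg.1 on chromosome 1. It had 12.28, 12.14 and 12.33 with the miR-543 vector, against 12.26, 12.42 and 12.13 with the control vector. The groups lay on top of one another, with a log2 change of -0.02 and an interval of -0.34 to 0.30 that leaves room for folds between 0.792 and 1.23 (adjusted p = 0.98). TYK2 pairs with JAK1 or JAK2 at the type I interferon and IL-12 receptors and was read by TC1900009627.hg.1 on chromosome 19. It had 10.55, 10.90 and 10.62 with the miR-543 vector, against 10.50, 10.58 and 10.61 with the control vector. The groups overlapped, and miR-543 replicate 2 was the highest array (log2 change 0.13, interval -0.20 to 0.45, adjusted p = 0.828). JAK3, which binds the common gamma chain of lymphocyte receptors, was read by TC1900009991.hg.1, also on chromosome 19. It had 7.01, 6.70 and 7.02 with the miR-543 vector, against 6.85, 7.29 and 7.30 with the control vector. Control replicate 1 lay among the miR-543 arrays, so the groups overlapped (log2 change -0.24, interval -0.62 to 0.14, adjusted p = 0.693).

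Whether the change of JAK2 differed from that of its relatives was tested within arrays, as the JAK2 signal minus the mean of the JAK1, JAK3 and TYK2 signals. That difference was 0.99, 0.97 and 0.83 with the miR-543 vector, against 0.55, 0.69 and 0.07 with the control vector. It was larger on every miR-543 array, by 0.49 on average, with means of 0.93 ± 0.088 and 0.44 ± 0.33 (SD, n = 3 each). The two-sided exact permutation p was 0.1, which is the smallest that 3 arrays against 3 can give, so the design could not reach 0.05. Without control replicate 3 the average difference was 0.308.

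Of the factors, STAT5A and STAT5B are close paralogs that share most of their functions downstream of erythropoietin, IL-3 and BCR-ABL1. STAT5A (TC1700007883.hg.1, chromosome 17) read 12.49, 12.69 and 12.44 with the miR-543 vector, against 13.08, 13.04 and 13.21 with the control vector. The groups were well apart, and each was narrower than the gap between them. STAT5A averaged 12.54 ± 0.13 with the miR-543 vector and 13.11 ± 0.089 with the control vector (SD, n = 3 each), a log2 change of -0.57 (SE 0.14, 95% interval -0.88 to -0.26), or 67.4% of the control signal. The unadjusted limma p was 0.00217, smaller than that of all but 1.35% of probe sets, and the adjusted p was 0.159.

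STAT5B (TC1700010717.hg.1, chromosome 17) read 10.93, 11.01 and 10.95 with the miR-543 vector, against 11.43, 11.48 and 11.23 with the control vector. The miR-543 arrays were nearly equal to one another and all lay below the control arrays. STAT5B averaged 10.96 ± 0.042 with the miR-543 vector and 11.38 ± 0.13 with the control vector (SD, n = 3 each), a log2 change of -0.42 (SE 0.14, 95% interval -0.72 to -0.11), or 74.9% of the control signal (unadjusted p = 0.0123, adjusted p = 0.315). Within arrays, the STAT5A signal minus the STAT5B signal was 1.56, 1.68 and 1.49 with the miR-543 vector, against 1.65, 1.56 and 1.98 with the control vector. The groups overlapped, and the mean difference of -0.15 had a two-sided exact permutation p of 0.5. The smallest p that 3 arrays against 3 can give is 0.1, so the test could not decide whether the paralogs changed unequally. That mean difference was -0.0283 without control replicate 3 and -0.238 without control replicate 2. The gene table places STAT5A and STAT5B side by side on opposite strands with spans that overlap. The start-site windows given below do not show that overlap. The single STAT5B window, on the minus strand, ends at 42276641, and the first STAT5A window, on the plus strand, begins at 42287189. The labels do not say whether the probes of the 2 paralogs can bind each other's transcript.

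STAT3, the main factor of the gp130 cytokines, was read by TC1700010721.hg.1 on chromosome 17. It had 11.52, 11.68 and 11.73 with the miR-543 vector, against 11.78, 11.58 and 11.88 with the control vector. The groups overlapped (log2 change -0.10, interval -0.43 to 0.22, adjusted p = 0.863). STAT6, the factor of IL-4 and IL-13, was read by TC1200010950.hg.1 on chromosome 12. It had 8.04, 8.28 and 7.88 with the miR-543 vector, against 8.26, 8.27 and 8.10 with the control vector. Here miR-543 replicate 2 was the highest of the 6 arrays and miR-543 replicate 3 the lowest (log2 change -0.14, interval -0.48 to 0.19, adjusted p = 0.802). All 4 measured STATs had negative log2 changes, here and after each rescaling of the arrays, with a median of -0.28. The 4 JAKs had 2 on each side of 0, apart from the change of sign of JAK1 under quantile normalization, with a median of 0.05.

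**Figure D2:**
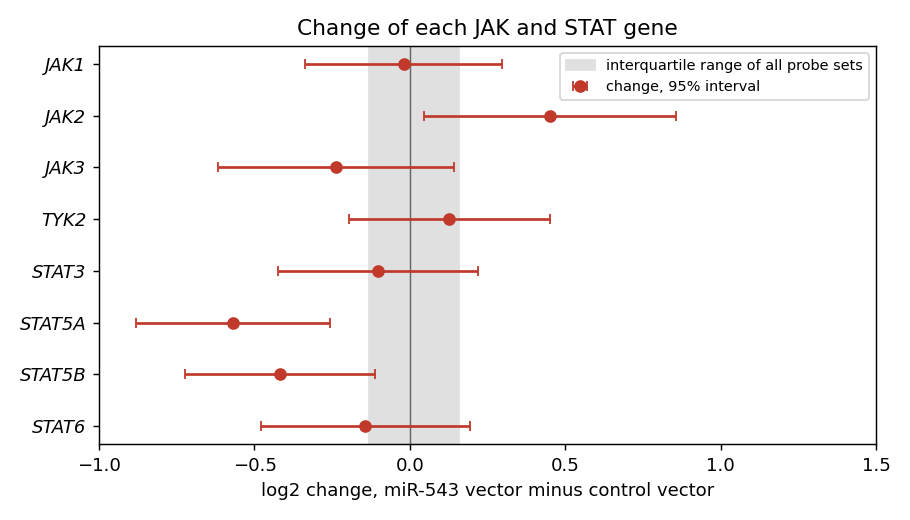
Log2 change (miR-543 vector minus control vector) of each measured JAK and STAT gene with its 95% interval from limma, 3 arrays against 3; the grey band is the interquartile range of all 21448 probe sets, from -0.13 to 0.16. The intervals of JAK2, STAT5A and STAT5B leave out 0 before adjustment for the number of probe sets, and the other 5 include it.

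STAT5A and STAT5B are neighbours, with STAT3 next to them, so the surrounding genes were read in gene order, 5 measured genes on each side. Of these 10 neighbours 8 lay below 0 and 2 above, with a median of -0.09, and 47.7% of all probe sets lay below 0. By limma 0 of the 10 were called, against 0.569% of all probe sets. Arrays did not overlap for 3 of the 10, against 15.4% of all probe sets. RAB5C, a small GTPase of early endosomes, had a log2 change of -0.28, and the transcription factor MLX had one of -0.45, while NAGLU, a lysosomal enzyme, had one of 0.41. Directly beside the STAT genes, GHDC had a log2 change of -0.01 and CAVIN1, a caveolar coat protein, one of -0.12. Around JAK2 the 10 neighbours ran from -0.58 for CDC37L1, a relative of the HSP90 co-chaperone CDC37, to 0.37 for RCL1, the gene just before JAK2 in that order, which takes part in ribosomal RNA processing. RCL1 was the 1 of 10 neighbours of JAK2 whose groups did not overlap, near the 15.4% of all probe sets, and 0 of the 10 were called, against 0.569% of all probe sets.

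**Figure D3:**
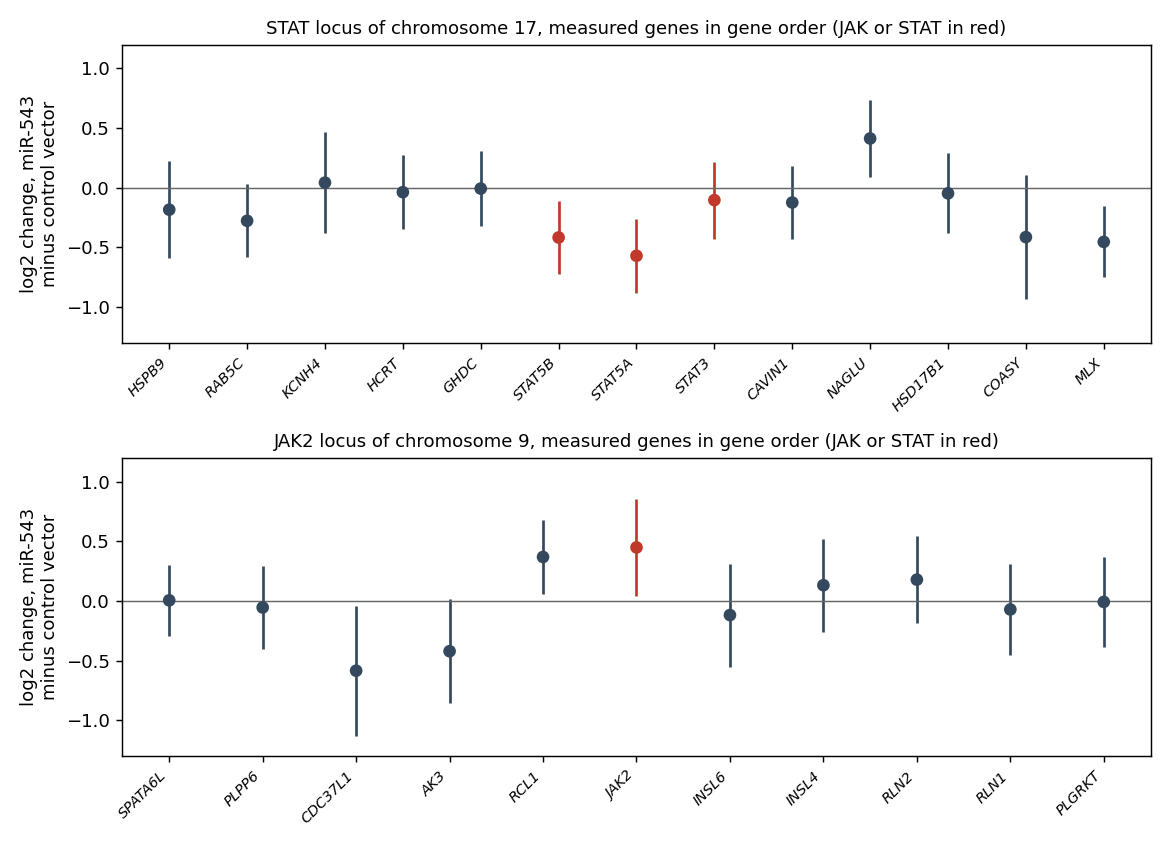
Log2 change with 95% interval (miR-543 vector minus control vector, 3 arrays against 3) for measured genes in gene order around the STAT5B, STAT5A and STAT3 locus and around JAK2. The STAT5 paralogs (-0.42 and -0.57) lie between GHDC and STAT3, whose changes are -0.01 and -0.10.

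Promoter windows of RefSeq, 300 bases that span a start site (GRCh38.p14), were found for all 8 measured members, 15 windows in all. They are shown for STAT5A and STAT5B, the pair with lower signals, with each CG dinucleotide in capitals, since TET enzymes, named in the series title, act on methylated CpG. For STAT5A the window richest in CpG of its 3 is printed (chr17:42288248-42288547, plus strand), and for STAT5B its single window (chr17:42276342-42276641, minus strand), both 5′ to 3′ on the gene's strand.
STAT5A: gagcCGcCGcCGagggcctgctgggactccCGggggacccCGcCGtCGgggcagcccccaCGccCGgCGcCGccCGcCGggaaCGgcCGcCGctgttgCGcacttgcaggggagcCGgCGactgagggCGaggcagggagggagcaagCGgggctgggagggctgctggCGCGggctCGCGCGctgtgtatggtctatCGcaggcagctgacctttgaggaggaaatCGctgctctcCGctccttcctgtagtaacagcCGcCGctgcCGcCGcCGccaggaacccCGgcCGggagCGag
STAT5B: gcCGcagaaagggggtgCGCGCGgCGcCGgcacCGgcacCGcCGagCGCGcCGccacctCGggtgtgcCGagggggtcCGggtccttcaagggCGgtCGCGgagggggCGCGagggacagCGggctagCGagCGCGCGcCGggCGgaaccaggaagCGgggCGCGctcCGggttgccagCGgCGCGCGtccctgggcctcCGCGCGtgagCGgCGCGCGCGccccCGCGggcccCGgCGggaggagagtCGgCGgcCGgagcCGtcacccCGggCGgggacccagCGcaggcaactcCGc

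The STAT5B window holds 55 CpG, more than 99.6% of all 35116 windows, whose median is 14. The printed STAT5A window holds 37, more than 88.7% of windows, and the other 2 windows of STAT5A, at start sites upstream of it, hold 3 and 5. JAK2 has 4 windows with 11 to 39 CpG, JAK1 has 3 with 9 to 43, and the single windows of TYK2, STAT3, JAK3 and STAT6 hold 24, 23, 14 and 12. The letters TTCNNNGAA, the GAS element that STAT dimers bind, which reads the same on both strands, were in 0 of the 15 member windows and in 7.66% of all windows. These counts describe the windows only, and DNA methylation was not measured on these arrays.

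For each member the named gene with the most similar course over the 6 arrays was taken by Pearson's r among 9188 probe sets of above-median signal. With so many candidates and 6 points, very high values arise readily, and they are given as descriptions. For STAT5A this was VCX, a cancer-testis gene (r = 0.996, log2 change -0.83), and for STAT5B it was SNAPC5, a subunit of the snRNA activating complex (r = 0.995, log2 change -0.17). For JAK2 it was MKNK2, a kinase of the translation factor eIF4E (r = 0.982, log2 change 0.42). OIP5 was closest to JAK1, RSKR to JAK3, TENM1 to TYK2, IMPDH2 to STAT3 and HPX to STAT6 (r between 0.982 and 0.995). No 2 members shared a closest gene.

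The rest of the pathway was read in 8 lists by role, with 116 of 124 listed genes measured. By limma 1 gene passed, the receptor gene IL20RB, which was lower with the miR-543 vector, 0.862% of the pathway genes beside 0.438% of all probe sets called lower and 0.569% called in either direction. The pathway genes had a median log2 change of 0.005 with 59 above and 55 below 0. An unadjusted p under 0.05 was found for 7 (6.03%, against 10.6% of all probe sets), and the groups did not overlap for 19 (16.4%, against 15.4%). The share with an unadjusted p under 0.05 was below that of the whole array, and the share without overlap was near it.

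**Figure D4:**
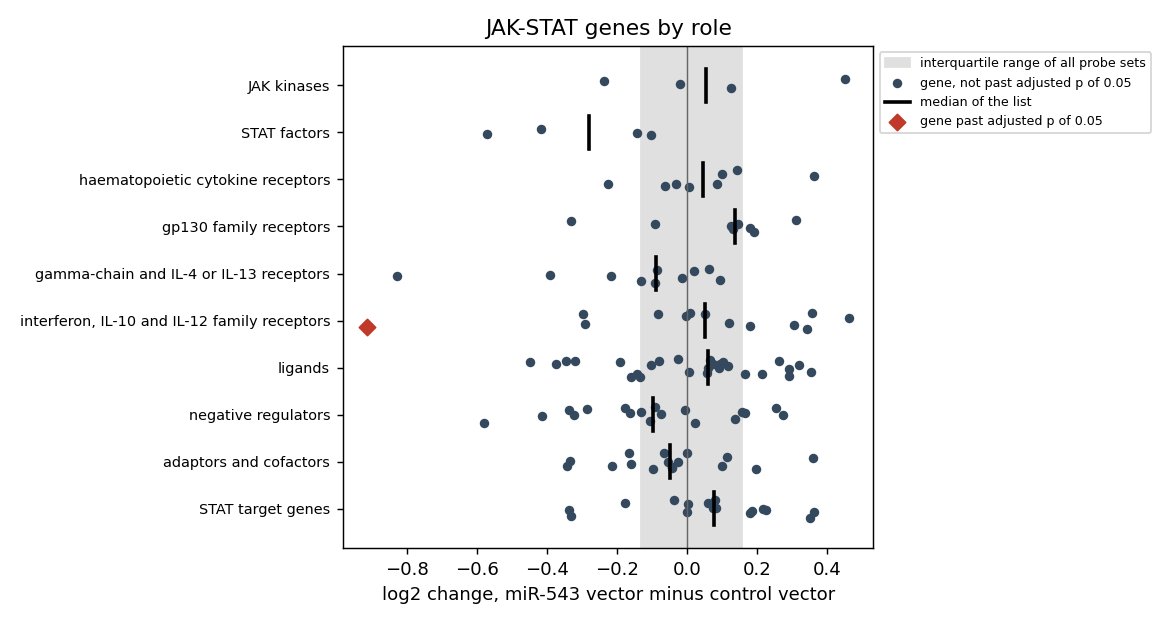
Log2 change (miR-543 vector minus control vector, 3 arrays against 3) of each measured JAK and STAT gene and of 116 other pathway genes, by role; black bars are list medians, the grey band is the interquartile range of all probe sets, and vertical scatter within a row has no meaning. The diamond is IL20RB, at -0.91, and the STAT factors have the lowest list median, -0.28.

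Among receptors, IL20RB encodes a chain of the receptors for IL-19, IL-20 and IL-24, which signal through STAT3. It read 10.39, 10.02 and 10.24 with the miR-543 vector, against 11.17, 11.18 and 11.04 with the control vector, so the groups were far apart. The fall was 0.91 on the log2 scale (log2 change -0.91, SE 0.15, adjusted p = 0.0271). Its call was lost without any 1 of the 6 arrays, with adjusted p-values of 0.0599, 0.112 and 0.088 without miR-543 replicates 1, 2 and 3 and of 0.132, 0.108 and 0.0788 without control replicates 1, 2 and 3. The log2 change itself was -0.815 or further below 0 in each of these fits of fewer arrays. The same list of 13 interferon, IL-10 and IL-12 family receptors held IL20RA and IL22RA1, chains that pair with IL20RB. Both were dim, with means of 3.28 and 3.51 with the miR-543 vector and 3.58 and 3.39 with the control vector. That list also held both chains of the interferon gamma receptor. IFNGR2, the chain that binds JAK2, read 13.64, 13.61 and 13.40 with the miR-543 vector, against 13.01, 13.08 and 13.17 with the control vector. All of its miR-543 arrays were higher, but it was not called (log2 change 0.46, adjusted p = 0.27). IFNGR1, the chain that binds JAK1, likewise did not overlap (log2 change 0.36, adjusted p = 0.414), and IL23R had a log2 change of -0.29 (adjusted p = 0.523).

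The common gamma chain IL2RG, the docking site of JAK3, read 10.09, 10.66 and 9.69 with the miR-543 vector, against 11.29, 10.76 and 10.87 with the control vector. The groups did not overlap, though miR-543 replicate 2 came near the control arrays (log2 change -0.83, SE 0.24, adjusted p = 0.249). In its list of 10 receptors 7 lay below 0, with a median of -0.09, and IL9R, IL21R and IL13RA1 had log2 changes of -0.39, -0.22 and -0.13. Means of 6 or less in both groups were found for 5 of these 10, among them IL21R. Of 8 gp130 family receptors 6 lay above 0 (median 0.14), among them LIFR at 0.31, the shared chain IL6ST at 0.18 and IL6R at 0.15, with IL11RA at -0.33. In that list 4 of 8 had means of 6 or less in both groups, among them IL6R and IL11RA. The receptors closest to JAK2 and STAT5 in blood formation were mostly dim, with means of 6 or less in both groups for 7 of 8. The exception was EPOR, the erythropoietin receptor, which read 6.53, 6.40 and 6.44 with the miR-543 vector, against 5.84, 6.13 and 6.97 with the control vector. Its control arrays spanned the miR-543 arrays (log2 change 0.14, adjusted p = 0.896). IL3RA, GHR and IL5RA in that list had log2 changes of -0.23, 0.36 and 0.10, and no receptor of these 3 lists was called.

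Of 27 measured ligand genes 24 had means of 6 or less in both groups, so their changes rest on dim signals, and none was called (smallest adjusted p = 0.414). The gp130 ligand CNTF had a log2 change of -0.45, IL7 one of -0.35 and IL5 one of 0.29. IL23A, a subunit of IL-23 and brighter than these, read 9.22, 9.23 and 8.85 with the miR-543 vector, against 8.82, 8.55 and 8.87 with the control vector (log2 change 0.35, adjusted p = 0.484). Its lowest miR-543 array lay just under its highest control array.

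Negative regulators, which switch the pathway off, had 12 of 18 measured members below 0 (median -0.10) and no call. SOCS7, of the SOCS family of receptor and JAK inhibitors, read 7.38, 7.50 and 7.61 with the miR-543 vector, against 7.97, 8.21 and 8.05 with the control vector. Its groups were well apart, with a log2 change of -0.58 (SE 0.14, adjusted p = 0.156). The JAK phosphatases PTPRC (CD45), PTPN2 and PTPN1 had log2 changes of -0.34, -0.32 and 0.25 (adjusted p = 0.429, 0.515 and 0.557), and the groups did not overlap for PTPRC and PTPN1.

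Of 16 adaptors and cofactors 11 lay below 0 (median -0.05). IRF9, which joins STAT2 in the interferon-stimulated complex, had a log2 change of 0.36 with groups that did not overlap (adjusted p = 0.488). NMI, which binds STATs, the adaptor GAB2 and the acetyltransferase CREBBP had log2 changes of -0.33, -0.34 and -0.21, with overlapping groups. Among 16 genes known as STAT targets 11 lay above 0 (median 0.08) and none was called. That list was not split into targets that STATs raise and targets that they lower. The survival gene BCL2L1, a STAT5 target, read 11.08, 10.94 and 10.81 with the miR-543 vector, against 11.54, 11.12 and 11.16 with the control vector. All of its miR-543 arrays were lower (log2 change -0.33, adjusted p = 0.515), as were those of CCND1, encoding cyclin D1 (log2 change -0.34, adjusted p = 0.474). Groups without overlap were thus found for 2 of the 16 targets in the lower direction, and for 1 other target in the higher direction. Over all probe sets the share without overlap was 15.4%, both directions together. ID1 and the repressor gene BCL6 had log2 changes of 0.35 and 0.36 with overlapping groups. CISH and SOCS2, also STAT5 targets but listed with the negative regulators, were bright. Their log2 changes were 0.16 and -0.16 with overlapping groups (adjusted p = 0.83 and 0.752). Whether STAT5 output differed between the groups was not tested.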

How the data were processed

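The submitters' processing notes name Transcriptome Analysis Console 4.0 together with RMA, a procedure that corrects background, normalizes arrays and summarises probes. The authors deposited log2 signals per probe set, rounded to 2 decimals; its variant and the annotation release are not given in the sources used here. Groups came from the sample titles, and 0 columns belonged to other samples. The platform annotation named 17709 of 21448 probe sets with 1 gene symbol, several for 0, and all 17709 identifiers matched the RefSeq gene table (GRCh38.p14), used for names, chromosomes and gene order.

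All probe sets were fitted with limma 3.58.1 (R 4.3.3; lmFit, eBayes, prior of 6.26 degrees of freedom and SD 0.201), two-sided, with Benjamini-Hochberg adjustment over all of them and no filter, block or weights. A gene was called at an adjusted p under 0.05. Intervals are 95% intervals. Single within-array differences had exact permutation tests. The steps were tested on simulated data. Genes with several probe sets were read by the brightest. Named were all members, every called pathway gene, up to 4 genes per list with the smallest unadjusted p, and each member's closest gene. Gene-order neighbours, CISH, SOCS2, IL20RA and IL22RA1 were added with results known. The members and lists were chosen with earlier results of these data known. Alternatives covered the variance prior, a replicate block, scaling, a signal filter and leaving out each array. No detection calls were used, and the number of arrays limits the precision.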

Additional observations from a re-analysis of the deposited data

How the results depend on the processing

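Of the 88 alternative fits of the 8 member changes, 84 kept the direction and the side of the threshold. STAT5A passed with the trend and robust variance prior (log2 change -0.57, adjusted p = 0.0145), and its adjusted p ran up to 0.405 under the others (that without control replicate 1). JAK1, near 0, changed sign after a further quantile normalization (0.0203) and ranged from -0.09 to 0.055 (adjusted p of 0.87 or more throughout) when 1 array was left out. With 1 array left out, the changes ranged from 0.275 to 0.63 for JAK2, from -0.645 to -0.52 for STAT5A, from -0.492 to -0.367 for STAT5B, from 0.0217 (without miR-543 replicate 2) to 0.197 for TYK2, from -0.25 to -0.05 (without miR-543 replicate 3) for STAT6, from -0.187 to -0.0367 (without control replicate 3) for STAT3 and from -0.385 to -0.132 (without miR-543 replicate 2) for JAK3. JAK2 minus the other JAKs ranged from 0.308 to 0.622 and STAT5A minus STAT5B from -0.238 to -0.0283. The 122 probe sets called over the whole table became 252 with the trend and robust prior, 71 with the replicate block and 34 to 59 with 1 array left out. The 1 pathway call became 2 with the trend and robust prior (IL20RB and IFNGR2), 0 with the replicate block (IL20RB, adjusted p = 0.0824) and 0 with any 1 array left out. Same-numbered arrays deviated together by r = 0.095, -0.053 and 0.018, so the numbers were not taken as pairs, and the block left every member uncalled (STAT5A log2 change -0.57, adjusted p = 0.274). No member had a further probe set, so that alternative was not run. The cause of these shifts was not tested. Leaving out an array changes both the number of arrays and which arrays remain. Dim probe sets, such as most ligands and blood cytokine receptors, give changes of uncertain size.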

Other observations

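Gene order around the remaining members was read in the same way, with 10 measured neighbours each. The median log2 change of these neighbours was -0.02 around JAK1, 0.11 around JAK3, -0.07 around TYK2 and -0.05 around STAT6. No neighbour at these 4 loci was called by limma, against 0.569% of all probe sets. Arrays did not overlap for 2 neighbours of JAK1 and 1 of TYK2, all higher with the miR-543 vector. The same held for 1 neighbour of STAT6, lower, and for 1 neighbour of JAK3 in each direction. Over all probe sets that share was 15.4%.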
